A study of Mus musculus with 19 samples.

Results

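The comparison described here asks whether loss of macroH2A1.1 had the same effect on each gene in liver as in kidney. Its measure is the tissue difference, the knockout effect in liver (knockout minus wild type, log2) minus the knockout effect in kidney, so that a positive value means a higher effect in liver. Every library of the series entered it, 19 of 19: 5 knockout and 5 wild-type kidneys, 5 knockout and 4 wild-type livers. All came from male mice on a C57BL/6J background after at least 10 generations of backcrossing, and RNA was taken from homogenized whole tissue and selected for poly(A). The knockouts carried homozygous deletions of exon 6b of the macroH2A1 gene, made by treating zygotes that held the floxed exon with soluble Cre, and the wild types came from the same kind of heterozygous matings. The deletion was made in the zygote and is not limited to a cell type by its design. Ages, batches and which mice ate standard or ketogenic chow were not given in the sources used here. Knockout libraries are numbered 13, 14, 15, 16 and 18, and wild-type libraries 19, 20, 22, 23 and 24, with the liver of number 23 not analysed here. Values below follow this order.

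MacroH2A1 is a histone H2A variant with a large macrodomain, found in nucleosomes of genes that are silenced and of some that are active. Alternative splicing of exon 6 gives macroH2A1.1, whose macrodomain binds ADP-ribose, a metabolite made from NAD, and macroH2A1.2, which does not bind it. Liver and kidney both make glucose, oxidise fatty acids and handle ammonia, but the hepatocyte secretes plasma proteins and detoxifies, whereas the kidney tubule reabsorbs solutes.

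Depth ran from 25919138 to 35131720 counts per library in kidney and from 26084473 to 34806035 in liver. Levels are given in CPM, a library's count scaled to its normalised total, after scaling of all 19 libraries together. The tissues matched their labels: albumin (Alb) ranged from 77200 to 103562 CPM in liver against 3.65 to 30.5 CPM in kidney, and uromodulin (Umod), a product of the thick ascending limb, from 1465 to 2479 CPM in kidney while no liver exceeded 0.0413 CPM. In whole tissue, fewer cells of a type and less RNA per cell cannot be told apart. Libraries labelled wild-type 24 stood near the knockouts for genes beside the target in both tissues, and kidney knockout 16 held RNA of adrenal cortex markers (108 CPM summed over 3 markers, against 3.4 to 5.05 CPM in the other kidneys). Values without them are given where they change a call or a size.

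The targeted gene had effects of the same sign and similar size in both organs. H2afy (ENSMUSG00000015937, GRCm38 chromosome 13, 56073619 to 56136361, minus strand) was at 36.1, 42.8, 43.1, 40.6 and 44.4 CPM in knockout kidneys and at 67.1, 66.4, 61.7, 66.6 and 48.8 CPM in wild-type kidneys. Knockout livers held 60.6, 59.6, 72.7, 72.8 and 66.8 CPM and wild-type livers 121, 109, 103 and 73.8 CPM. No knockout reached a wild type in either tissue, and in both the lowest wild type was the library labelled wild-type 24. The effect was -0.59 (SE 0.12, edgeR adjusted p = 0.1) in kidney and -0.62 (SE 0.12, edgeR adjusted p = 0.0416, range over alternatives 0.000658 to 0.384) in liver. Among the alternatives the liver call was lost in 11 of 22. The tissue difference was -0.03 with a 95% interval of -0.38 to 0.32 (edgeR adjusted p = 1). Without number 24 the liver effect of H2afy was -0.74 (adjusted p = 0.000658) and the difference -0.08. Its sign turned without number 14 (0.02) or 19 (0.03). Counts over the whole gene lie mostly outside the deleted exon and so do not check the isoform.

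Over all genes, no tissue difference passed the test. Of 18549 genes tested with edgeR's quasi-likelihood test, 0 had an adjusted p under 0.05 (0%). The lowest adjusted value, 0.668, belonged to 11 genes. Without adjustment 765 genes (4.12%) had p under 0.05, of which 343 (1.85%) had a higher effect in liver and 422 a lower one. DESeq2 called 11 genes on the same counts and limma voom 0. These 11 were Hsd17b13, Vldlr, Hc, Gm10451, 4632415L05Rik, Dmrt2, Kap, AA986860, Ugt2a3, Habp4 and Tc2n. With edgeR, 1 gene passed without number 14 (AA986860), 3 without number 16 (Plcd3, Hsd17b13 and Habp4) and 1 without number 24 (Cxcl14). For each of these genes the number left out held the library nearest to, or among, the other genotype. Such passes are therefore no separate support for a difference.

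The precision of the contrast bounds what could be seen. The median standard error of a tissue difference was 0.27 on the log2 scale, against 0.17 for an effect in kidney and 0.19 in liver. Among the 13847 genes that passed the count filter in each tissue it was 0.21, and the 95% interval lay within -1 to 1 for 79.3% of them, so that for most genes active in both organs a difference beyond 2-fold lay outside the interval. Over all genes the share was 59.4%. Another 3422 genes passed the filter in kidney only and 744 in liver only, with median standard errors of 0.93 and 0.92. The share with an unadjusted p under 0.05 was 3.16% among genes active in both tissues, 7.33% among genes of kidney only and 7.26% among genes of liver only.

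Counts of genes called in each tissue by the same fit differed, but a gene called in 1 tissue was not thereby shown to differ between them. In kidney 3 genes passed (0.0162% of those tested), all lower in knockouts: Unc5a, Gm7240 and 1810034E14Rik. In liver 21 passed (0.113%), 17 higher and 4 lower, and 0 passed in both. Without adjustment 381 genes in kidney (2.05%) and 1344 in liver (7.25%) had an edgeR p under 0.05. Fitted on its own, each tissue gave another count, 1 gene in kidney and 0 in liver. The kidney count was 0 without number 14 or 15, 1 without 18, 7 without 24 and 11 without 16. The liver count was 9 without number 13 or 18, 52 without 14, 5 without 15, 3 without 19, 7 without 20, 2 without 22 and 10 without 23. A liver call given below is that of the fit of all 19 libraries.

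**Figure D1:**
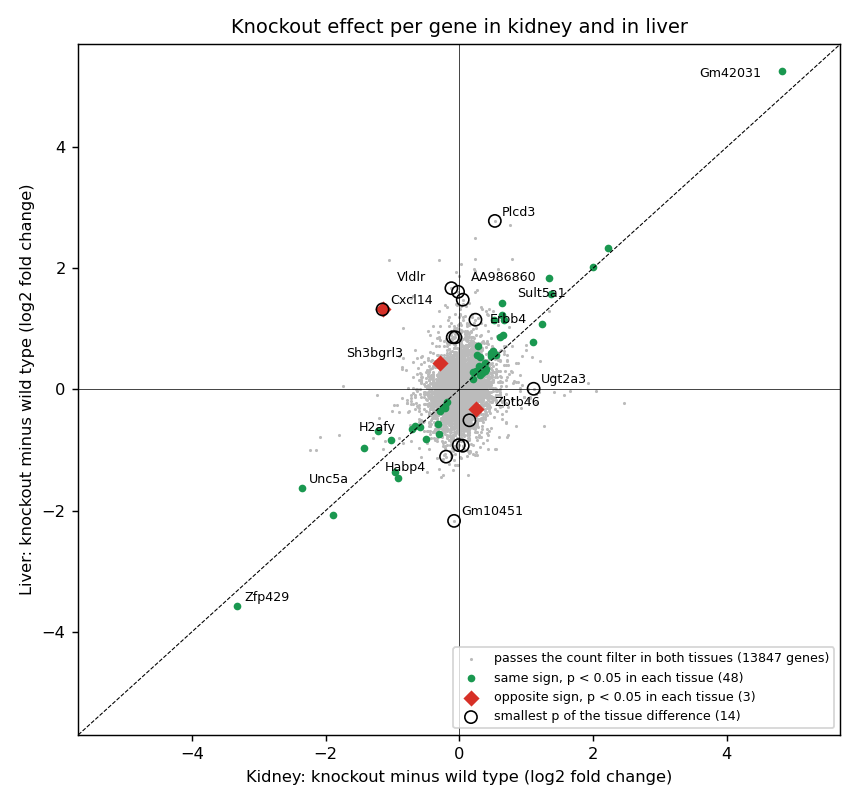
Knockout effect of each gene in kidney (horizontal axis, log2 fold change) and in liver (vertical axis, log2 fold change) for the 13847 genes that passed the count filter in each tissue; the dashed line marks equal effects. The 48 genes of equal sign lie on the same side of 0 on both axes, the 3 of opposite sign are marked by diamonds, and most of the 14 circled genes with the smallest p of the tissue difference lie near the vertical axis, with an effect in liver and little in kidney.

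The 10 genes with the smallest p and a higher effect in liver were Vldlr, Cspg4, Tc2n, AA986860, Nabp1, Plcd3, D730005E14Rik, Gvin1, Cxcl14 and Erbb4. The 10 with a lower effect in liver were Hsd17b13, Habp4, 4632415L05Rik, Gm10451, Dmrt2, Ugt2a3, Lipc, Pls1, Rasl11b and Hc. Of these 20 genes 14 passed the filter in both tissues, 3 in kidney only and 3 in liver only. For 16 of them the smaller p was that of the liver effect, and for 4 (Hsd17b13, Ugt2a3, Lipc and Hc) that of the kidney effect. Knockout and wild-type libraries did not overlap in liver for 11 of the 20 and in kidney for 3. The 20 were chosen by p from these same libraries, so both counts describe the choice, and shares over all genes were not counted. For Cspg4 the liver gap was only 0.147 CPM in knockout 18 against 0.141 CPM in wild-type 20, 3 counts in each. None of the 20 passed the edgeR threshold for the difference, so the values below describe the genes that came nearest to it.

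Vldlr had the smallest p among genes with a higher effect in liver. The gene (chromosome 19, 27216484 to 27254231) encodes the very low density lipoprotein receptor, which takes up triglyceride-rich particles and is normally scarce in liver. Its level in knockout livers was 5.0, 5.96, 1.86, 2.18 and 2.2 CPM against 0.952, 1.5, 1.09 and 0.747 CPM in wild-type livers, and the groups did not overlap. In kidney the knockouts were at 66.6, 49.9, 54.5, 56.6 and 49.3 CPM and the wild types at 62.4, 61.6, 62.7, 49.1 and 65.4 CPM, within each other's range. Its effect was 1.67 in liver (SE 0.32, edgeR adjusted p = 0.0415) and -0.12 in kidney (SE 0.21), a difference of 1.79 (SE 0.38, edgeR adjusted p = 0.668). The call for the liver effect of Vldlr was lost in 13 of 22 alternatives (adjusted p 1.22e-05 to 0.536), among them the fit without number 24 (0.128). DESeq2 called it with a difference of 1.81 (adjusted p = 0.00641, range over alternatives 0.00641 to 1). Livers 13 and 14 were the high ones, above the other 3 knockouts.

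Erbb4 (chromosome 1, 68032186 to 69108059), a receptor tyrosine kinase for neuregulins, reached 4.63, 5.06, 6.02, 4.53 and 7.1 CPM in the livers of knockouts, against 2.65, 2.77, 2.22 and 2.19 CPM in those of wild types. Each knockout liver was above each wild type. Kidneys overlapped, with knockouts at 20.4, 13.2, 11.8, 16.7 and 14.1 CPM and wild types at 10.6, 13.4, 13.5, 11.1 and 15.8 CPM. The effect of 1.15 in liver (SE 0.19, edgeR adjusted p = 0.0154) stood against 0.24 in kidney (SE 0.15), and the difference was 0.91 (interval 0.41 to 1.41, edgeR adjusted p = 0.84). The call for the liver effect of Erbb4 was lost in 5 of 22 alternatives (adjusted p 2.02e-05 to 0.197). Plcd3, a phospholipase C of phosphoinositide signalling, reached 13.6, 6.14, 9.82, 1.59 and 12.5 CPM in the livers of knockouts and 0.828 to 1.55 CPM in wild-type livers. Knockout liver 16 lay just above the wild types, and the other 4 far above them. Its difference of 2.25 (SE 0.56, edgeR adjusted p = 0.84) was 2.42 without number 16 (adjusted p = 0.00712, range over alternatives 0.00712 to 1).

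Of the other genes of this direction, Cspg4 and D730005E14Rik had few counts in liver. Tc2n, a protein with tandem C2 domains, was at 3.13 to 4.02 CPM in knockout livers and 1.74 to 2.19 CPM in wild-type livers, with kidneys at 5.18 to 7.71 CPM in both genotypes and a difference of 0.92 (SE 0.21). Gvin1, an interferon-inducible GTPase gene, was at 1.13 to 3.04 CPM in knockout and 0.497 to 0.854 CPM in wild-type livers, and its difference was 1.43 (SE 0.38). Nabp1, a single-stranded DNA-binding protein, reached 19, 23.2, 34.7, 39.7 and 38.8 CPM in the livers of knockouts and 14.1 to 21.2 CPM in those of wild types, so that liver 13 lay among the wild types (difference 0.96, SE 0.23). AA986860, an uncharacterised coding gene, had the same pattern with liver 14 as the low knockout (1.39 CPM, against 4.16 to 5.97 CPM in the other 4 and 0.962 to 2.3 CPM in wild types), and its difference of 1.62 passed without number 14 (1.93, adjusted p = 0.00548, range over alternatives 0.00548 to 1). The proteoglycan gene Cspg4, a pericyte marker, had 40 counts over the 5 knockout livers and 3 over the 4 wild types, a ratio of 10.3 (95% exact interval 3.29 to 52.2, counting error only). Wild-type liver 20 held all 3 of these, and without it knockouts were at least 7.83-fold higher against a floor of 3 counts over the group, a setting chosen after seeing the data. The antisense gene D730005E14Rik had 30 counts in knockout and 1 in wild-type livers, a ratio of 23.2 (exact interval 3.86 to 948).

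Among genes with a lower effect in liver, Habp4 lies on chromosome 13 (64161824 to 64186537), as H2afy does. It encodes a protein that binds hyaluronan and RNA. Knockout livers were at 55.9, 64.2, 66.3, 105 and 65.6 CPM and wild-type livers at 176, 174, 139 and 126 CPM. Liver 16 was the highest knockout yet stayed under the lowest wild type. Knockout kidneys, at 60.1, 61.3, 66.3, 69.9 and 69.1 CPM, overlapped with wild-type kidneys at 87.8, 77.1, 75.1, 67.5 and 66.8 CPM. Its effect was -1.11 in liver (SE 0.14, edgeR adjusted p = 0.00191) and -0.20 in kidney (SE 0.14), a difference of -0.91 (interval -1.32 to -0.50, edgeR adjusted p = 0.668). The call for the liver effect of Habp4 was lost in 1 of 22 alternatives (adjusted p 2.12e-08 to 0.169). Without number 16, which held this highest knockout liver, the tissue difference of Habp4 passed (-1.07, adjusted p = 0.00964, range over alternatives 0.00964 to 1). Levels of Habp4 are not compared between the tissues, because their order depends on the scaling (TMM factors 1.31 to 1.39 in kidney and 0.666 to 0.759 in liver).

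Pls1, an actin-bundling protein of microvilli, was at 0.245 to 0.62 CPM in knockout livers and 0.669 to 1.07 CPM in wild types, with kidneys at 31.9 to 36 CPM in both genotypes (difference -0.91, SE 0.23). Rasl11b, a small GTPase, was at 2.11 to 3.72 CPM in knockout livers and 4.32 to 7.51 CPM in wild types (difference -0.98, SE 0.26). Dmrt2, a transcription factor, was at 0.0404 to 0.317 CPM and 0.335 to 0.907 CPM in the same groups (difference -1.97, SE 0.47). In these 3 genes the liver groups lay apart and the kidney groups overlapped. The gap was narrow for Pls1 (15 counts in knockout liver 13, 16 in wild-type liver 22) and Dmrt2 (7 in knockout liver 16, 8 in wild-type liver 22). Dmrt2 passed the count filter in kidney only. The noncoding gene models 4632415L05Rik and Gm10451 had differences of -0.66 (SE 0.15) and -2.09 (SE 0.49).

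**Figure D2:**
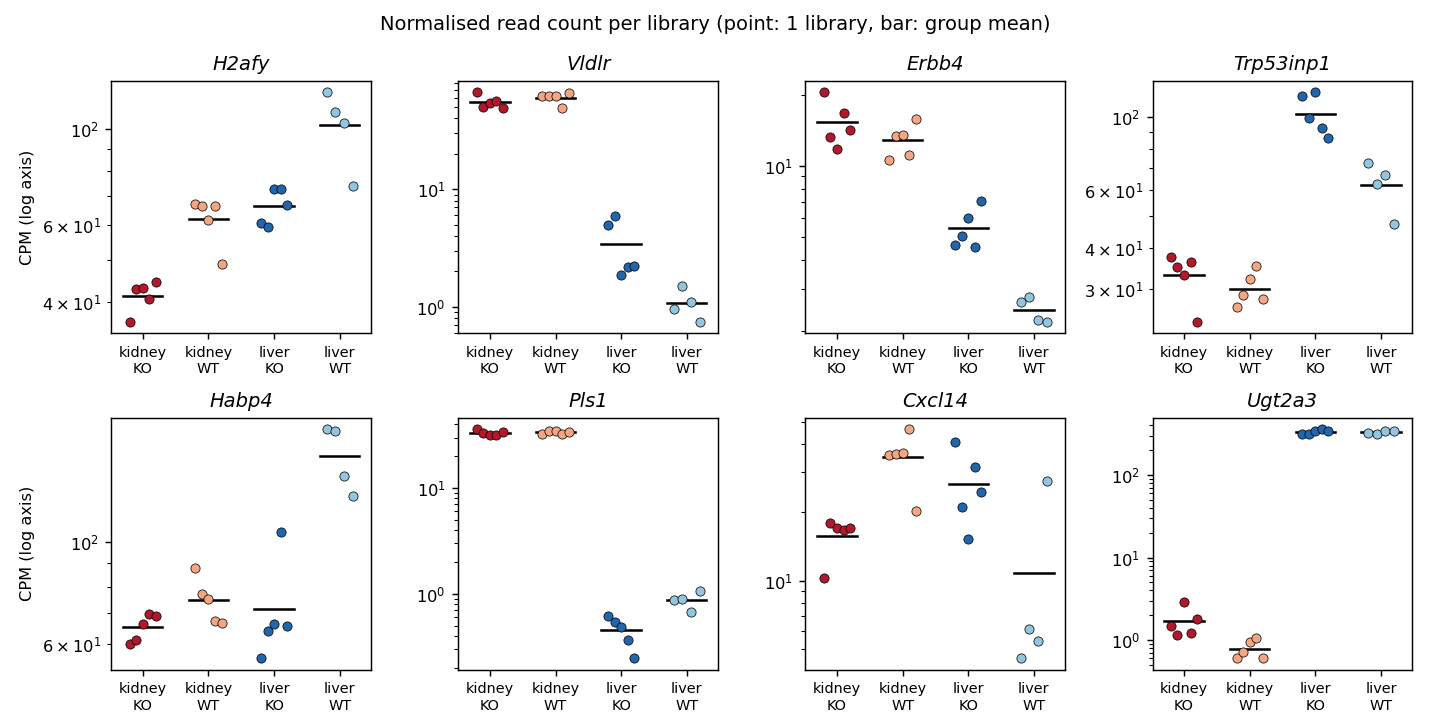
Normalised read count (CPM, log axis) of 8 genes in each library, in 4 groups, with the group mean as a bar; H2afy is the targeted gene and Trp53inp1 a p53 target described further on. Vldlr, Erbb4 and Trp53inp1 were higher and Habp4 and Pls1 lower in each knockout liver than in each wild type while the kidney groups overlapped; the reverse order was seen for Ugt2a3, apart in kidney (1.15 to 2.93 against 0.601 to 1.06 CPM) and level in liver.

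The 4 genes with the smaller p in kidney are all abundant in liver and were scarce in kidney. Of these, Hsd17b13, Lipc and Hc passed the count filter in liver only. They were tested because of their liver counts, and their differences rest on few kidney counts. Hsd17b13, an enzyme of hepatic lipid droplets, was at 0.396, 0.909, 0.576, 0.0874 and 0.482 CPM in knockout kidneys and at 0.0694, 0.148, 0.079, 0.0222 and 0.0278 CPM in wild-type kidneys. Livers held 513 to 762 CPM, with knockouts and wild types overlapping. In counts these kidney values are 97 against 15 over 5 libraries each, a ratio of 6.89 (exact interval 3.98 to 12.8). The difference of -2.63 had the smallest unadjusted p of all genes (5.67e-05, edgeR adjusted p = 0.668) and passed in DESeq2 (-2.69, adjusted p = 0.000412, range over alternatives 0.000412 to 1) and without number 16 (-2.86, adjusted p = 0.00964).

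Ugt2a3, a glucuronosyltransferase, was at 1.47, 1.15, 2.93, 1.22 and 1.8 CPM in knockout kidneys and at 0.601 to 1.06 CPM in wild-type kidneys, without overlap, and at 312 to 360 CPM in all livers. Its difference was -1.10 (SE 0.26, edgeR adjusted p = 0.668). Lipc, the hepatic lipase gene, had 27 counts over the knockout kidneys and 6 over the wild types (ratio 4.79, exact interval 1.94 to 14.2), and 180 to 239 CPM in livers. Hc, complement component 5, had 15, 3, 1, 4 and 0 counts in knockout kidneys and 0 in all 5 wild types, at least 8.17-fold higher against a floor of 3 counts over the group. Kidney 13 held 15 of the 23 counts, and without it the bound was 3.63-fold, while livers held 797 to 1143 CPM.

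Albumin was highest in the same kidney as Lipc and Hc. Kidney knockout 13 held 30.5 CPM of Alb, against 3.65 to 7.01 CPM in the other 9 kidneys, and it held the most Lipc (0.21 CPM) and Hc (0.349 CPM) of all kidneys. The mean level of 12 hepatocyte markers (log2, relative to wild-type kidneys) was 1.28 in knockout kidney 13 and -0.26 to 0.23 in the other 9 kidneys. Of these markers 9 had a positive effect in kidney, with a median of 0.26. Their summed level was 124 to 145 CPM in knockout and 112 to 151 CPM in wild-type kidneys, and no marker was at 0 in all kidneys. Without number 13, the tissue difference of Hsd17b13 was -2.64, the tissue difference of Ugt2a3 was -1.13 and the tissue difference of Lipc was -1.84. In counts without kidney 13, a setting chosen after seeing the data, the kidney ratio was 7.27 for Hsd17b13 (exact interval 4.15 to 13.6) and 4.09 for Lipc (1.55 to 12.6). The highest kidney was 14 for Hsd17b13 and 15 for Ugt2a3, and these held 5.35 and 3.65 CPM of Alb. Knockout kidney 15, with the least Alb of all kidneys, was second to kidney 13 in Lipc (0.192 CPM). Wild-type kidney 19, second in Alb at 7.01 CPM, held 0.0463 CPM of Lipc. Among listed genes of the same kind, Tdo2, which opens tryptophan breakdown toward NAD, had a difference of -1.46 (-1.13 without number 13), and Tdo2, Otc of the urea cycle, Cyp1a2 and Tat were each highest in kidney 13. The part of hepatocyte RNA in these values was not tested beyond this.

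**Figure D3:**
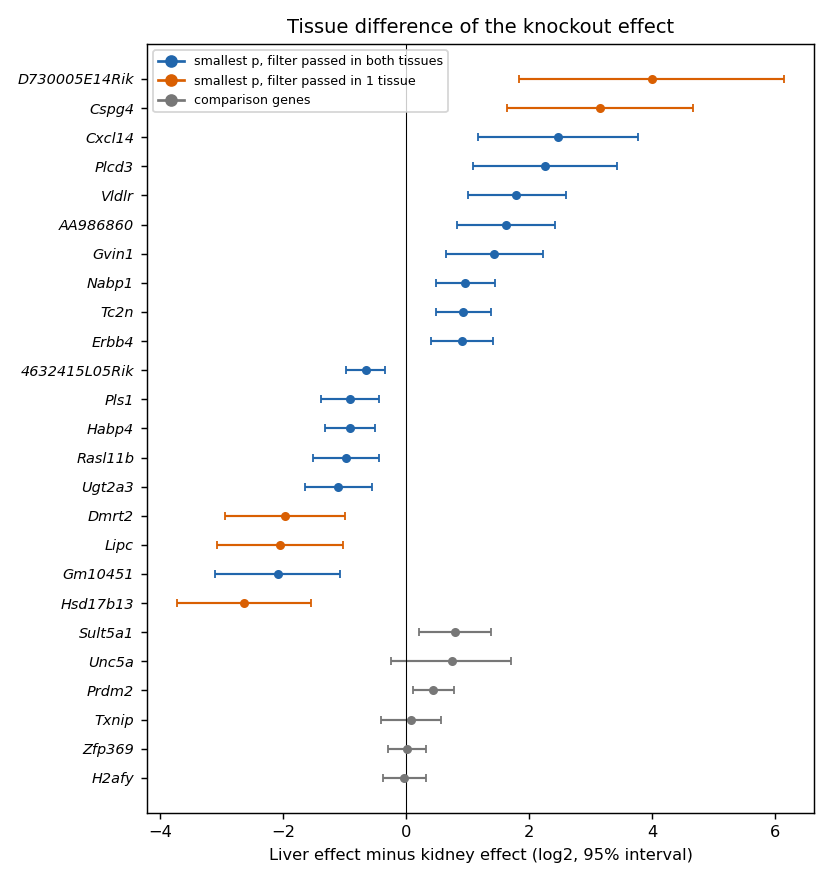
Tissue difference of the knockout effect (liver effect minus kidney effect, log2, points) with its 95% interval (lines) for 19 of the 20 genes with the smallest p and for 6 comparison genes; Hc is not drawn because its wild-type kidneys held 0 counts. The widest intervals are those of D730005E14Rik (1.84 to 6.14) and Cspg4 (1.64 to 4.66), which passed the count filter in kidney only, and H2afy, Zfp369 and Txnip lie within 0.1 of 0.

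Genes with effects of opposite sign were few. With an unadjusted edgeR p under 0.05 in each tissue, 51 of the 13847 genes active in both qualified, 48 with effects of equal sign (0.347%) and 3 of opposite sign (0.0217%). Across these 13847 genes the kidney and liver effects had a Pearson r of 0.24 and a Spearman rho of 0.15. These describe genes that are not independent, in libraries whose numbers are shared between the tissues. The opposite genes were Cxcl14 and Sh3bgrl3, lower in knockout kidneys and higher in knockout livers, and Zbtb46, the other way round. Their number was 7 without number 13 and 1 without number 23.

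Cxcl14 (chromosome 13, 56288643 to 56296551, minus strand) encodes a chemokine of epithelia and lies close to H2afy. Knockout kidneys held 10.3, 18, 17, 16.7 and 17 CPM and wild-type kidneys 35.8, 36.1, 36.5, 46.5 and 20.3 CPM. In kidney the groups did not overlap. Knockout livers held 40.8, 21.1, 15.2, 31.8 and 24.6 CPM and wild-type livers 4.55, 6.1, 5.4 and 27.4 CPM. Livers overlapped through 1 library, the one labelled wild-type 24, which at 27.4 CPM lay among the knockouts, as its kidney lay nearest to the knockouts. The effect was -1.15 in kidney (SE 0.41) and 1.32 in liver (SE 0.46), a difference of 2.46 (interval 1.16 to 3.77, edgeR adjusted p = 0.84). Without number 24 it was 3.61 (adjusted p = 3.29e-05), without 16 and 24 together 3.56 (adjusted p = 0.000442), and over all alternatives it ran from 2.14 to 3.61 (adjusted p 3.29e-05 to 1). Leaving out number 24 takes away the wild-type liver that lay among the knockouts. The lower p-values without it are therefore no separate support for the difference.

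Sh3bgrl3, a small thioredoxin-fold protein, was at 21, 29.8, 26, 23 and 30.6 CPM in knockout kidneys and 34.1, 35.6, 29.8, 34.1 and 25.5 CPM in wild types, and at 13.3, 10.7, 19.4, 14.5 and 14.4 CPM in knockout livers against 11, 9.72, 10.6 and 11.5 CPM. Groups overlapped in both tissues, and the difference was 0.72 (SE 0.20, edgeR adjusted p = 0.84). Zbtb46, a transcription factor of dendritic cells and endothelium, was at 11.1 to 13 CPM in knockout and 8.65 to 11.2 CPM in wild-type kidneys, and at 7.25 to 9.05 against 8.45 to 12.7 CPM in livers. Its difference was -0.58 (SE 0.18, edgeR adjusted p = 0.84), and -0.45 without number 24, the highest liver. Timp1, an inhibitor of matrix proteases that passed the filter in kidney only, was at 0.132 to 0.548 CPM in knockout and 0.55 to 1.57 CPM in wild-type kidneys, and at 0.162 to 0.539 against 0.047 to 0.209 CPM in livers (difference 2.57, SE 0.69, edgeR adjusted p = 0.84).

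The 48 genes of equal sign comprised 29 higher and 19 lower in knockouts. Kidney and liver libraries of the same number correlated at 0.084 to 0.416 in deviations from group means, so the effects in the 2 tissues may not be independent. The part of this in the 48 was not tested. Of the 48 genes 16 lie on chromosome 13 (33.3%), which holds 3.68% of the genes active in both tissues. Among the leading ones, Zfp369, a zinc finger gene, was at 11.7 to 14.4 CPM in knockout and 7.76 to 10.9 CPM in wild-type kidneys, and at 12 to 13.8 against 8.49 to 9.2 CPM in livers. Its effects of 0.55 and 0.57 gave a difference of 0.02 (interval -0.30 to 0.33), with a sign that turned with library totals, limma voom and without number 24. Slc35d2, a nucleotide sugar transporter, had effects of 0.47 in kidney and 0.60 in liver (difference 0.12, interval -0.21 to 0.46). Zfp429, another zinc finger gene, was at 0 to 0.0535 CPM in knockout kidneys other than number 16 (0.67 CPM) and 0.944 to 2.3 CPM in wild types, and at 0 to 0.227 against 0.47 to 1.57 CPM in livers. Its difference of -0.24 had an interval of -2.52 to 2.03, and its sign turned in 5 alternatives.

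Unc5a (chromosome 13, 54949411 to 55006018), a netrin receptor, was at 0.303 to 0.745 CPM in knockout and 1.31 to 3.11 CPM in wild-type kidneys. Knockout livers were at 0.744 to 1.36 CPM and wild-type livers at 4.68, 3.43, 4.23 and 1.12 CPM, the last being the library labelled wild-type 24. Its effect was -2.36 in kidney (edgeR adjusted p = 0.00665, range over alternatives 1.61e-08 to 0.0551) and -1.63 in liver (adjusted p = 0.0603), and the difference of 0.74 spanned -0.24 to 1.71. Without number 24 the kidney effect of Unc5a was -2.52 (adjusted p = 2.65e-05) and the difference 0.61. Away from chromosome 13, the long noncoding gene Gm42031 on chromosome 8 was at 14 to 20.4 CPM in 4 knockout kidneys and 0.874 CPM in number 16, and number 16 was also the low knockout in liver (0.408 CPM). It was at 0.347 to 0.606 CPM in wild-type kidneys and 0.047 to 0.377 CPM in wild-type livers, so that knockout 16 was near the wild types in both organs.

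Of the 48, 27 had a 95% interval of the difference within -1 to 1, against 79.3% of the genes active in both tissues. An unadjusted p of the difference under 0.05 was found for 2 of the 48, against 3.16% of those genes. These 2 were Sult5a1 and Prdm2, and neither passed the edgeR threshold for the difference. Sult5a1, a sulfotransferase, was at 2.28, 3.18, 2.88, 2.74 and 2.65 CPM in knockout and 1.06 to 2.22 CPM in wild-type kidneys, and at 99.9, 97.5, 83.9, 54.8 and 114 CPM in knockout and 24.1 to 38.5 CPM in wild-type livers. Groups lay apart in both tissues, with a larger effect in liver (1.43 against 0.64, difference 0.80, interval 0.21 to 1.38). Prdm2, a zinc finger methyltransferase gene, had effects of 0.72 in liver and 0.28 in kidney (difference 0.44, interval 0.11 to 0.78). Txnip, a glucose-responsive arrestin named after its values were seen, as was Prdm2, had effects of 0.47 in kidney and 0.55 in liver and a difference of 0.08 (interval -0.41 to 0.56), which does not show that they were equal.

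Genes around the target were also counted as a group. Of 175 genes tested within 10 Mb of H2afy, 86 had a higher and 89 a lower effect in liver, with a median difference of -0.01 against 0.00 over all genes. An unadjusted p of the difference under 0.05 was found for 12 of them (6.86%, against 4.12% of all genes), of the kidney effect for 19 (10.9%, against 2.05%) and of the liver effect for 25 (14.3%, against 7.25%). Of its 125 genes active in both tissues 8 had effects of equal sign at that p and 1, Cxcl14, of opposite sign.

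Turning to pathways, 29 lists of genes were read by the sign and size of the members' differences, and no member of any list passed the edgeR threshold. Over all 18549 genes 49.8% had a higher effect in liver, and the median difference was 0.00. With 1 number left out, the median of 20 of the 29 lists reached or crossed 0, and that of 9 remained above it. In energy metabolism, 38 of 40 measured genes of the nuclear-encoded respiratory chain, whose complexes pass electrons to oxygen and make ATP, had a higher effect in liver. Their median effect was -0.09 in kidney (36 of 40 lower) and 0.11 in liver (33 of 40 higher), and the median difference was 0.19, with members from -0.07 to 0.48. The count was 36 to 39 under the scalings and tools tried and 35 with a median of 0.08 without number 18. Ndufa1, a subunit of complex I, had the smallest p, with a difference of 0.48 (SE 0.23, edgeR adjusted p = 1). Its level was 68.1 to 109 CPM in knockout and 84.3 to 106 CPM in wild-type kidneys, and 108 to 174 against 71.9 to 132 CPM in livers, overlapping in both.

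Read per library, the respiratory chain level (mean log2 CPM over members, relative to the wild-type mean of the tissue) was -0.25, 0.04, 0.02, -0.12 and -0.22 in knockout kidneys. In knockout livers it was -0.16, -0.10, 0.21, 0.14 and 0.42, and in wild-type livers 0.14, 0.15, -0.18 and -0.11. The high livers were knockouts 18, 15 and 16 and wild types 19 and 20, and the groups overlapped. Fatty acid oxidation genes had a higher effect in liver in 19 of 24 (median 0.06), led by Eci2 (0.32) and Acadm (0.29), but in 11 of 24 without number 24 (median -0.01). TCA cycle genes did so in 17 of 23 (median 0.08), and in 13 of 23 with library totals. Of 9 ketone body genes 7 had a higher effect in liver (median 0.16), and 5 of 9 without number 24 (median 0.01, and 0.03 without number 15), with Slc16a7, a monocarboxylate transporter, at 0.38 (SE 0.16).

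ER chaperones fold secreted and membrane proteins and are induced when unfolded proteins build up. Of 19 measured, 18 had a higher effect in liver, with a median of -0.20 in kidney, 0.22 in liver and 0.33 for the difference, and 0 had an unadjusted p under 0.05. The count was 18 under each scaling and with DESeq2 and limma voom, with medians of 0.30 to 0.38, and at 17 to 19 with 1 number left out (medians 0.27 to 0.44). Hspa5, the most general of them and named after its values were seen, was at 389, 282, 295, 491 and 219 CPM in knockout kidneys and 332, 293, 337, 578 and 571 CPM in wild types. In livers it was at 1019, 973, 1272, 3335 and 1707 CPM in knockouts and 1116, 940, 963 and 2050 CPM in wild types. The high libraries were liver 16, wild-type liver 24, kidneys 23 and 24 and kidney 16. The list level was 0.94 in knockout liver 16 and 0.39 in wild-type liver 24, and it was 0.29 and 0.18 in wild-type kidneys 23 and 24, so the libraries of 1 genotype spread more widely than the medians of the genotypes lay apart.

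Promoters of these genes are known for the ER stress response element, CCAAT and CCACG parted by 9 free bases, which ATF6 and NF-Y bind. Promoters of 17 of the 19 were found in RefSeq (GRCm38.p6), and 7 of them (41.2%) held it on either strand in the 250 bases before the start, against 0.13% of 27025 genes with a promoter. The 7 were Hspa5, Hsp90b1, Calr, Canx, Pdia6, Dnajc3 and Creld2, with a median difference of 0.20, against 0.32 for the 10 with a promoter that lacked it. The pair with the smallest p of the tissue difference among them is shown, Hsp90b1 (GRCm38.p6 chr10:86705445-86705694, minus strand, 2 matches) and Creld2 (chr15:88819396-88819645, plus strand, 1 match), as the 250 bases before the start, 5′ to 3′, with the element in capitals.
Hsp90b1: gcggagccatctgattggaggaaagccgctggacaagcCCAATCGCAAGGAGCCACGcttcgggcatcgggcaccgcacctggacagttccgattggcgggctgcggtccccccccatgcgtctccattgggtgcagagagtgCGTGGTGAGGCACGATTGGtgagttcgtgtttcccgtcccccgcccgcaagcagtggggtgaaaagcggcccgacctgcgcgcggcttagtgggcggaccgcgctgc
Creld2: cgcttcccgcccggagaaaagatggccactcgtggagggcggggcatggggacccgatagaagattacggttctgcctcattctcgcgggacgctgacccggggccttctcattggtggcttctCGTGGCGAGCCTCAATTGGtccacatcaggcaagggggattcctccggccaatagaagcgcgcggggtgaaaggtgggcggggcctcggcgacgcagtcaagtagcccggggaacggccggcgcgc
Hsp90b1 had a difference of 0.56 (SE 0.30) and Creld2 one of 1.32 (SE 0.79). For the respiratory chain, the NRF1 element, GCGCA and GCGC parted by 1 free base, was found in 5 of 30 members with a promoter (16.7%), against 4.23% of all genes. These matches describe letters and not binding in these samples.

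**Figure D4:**
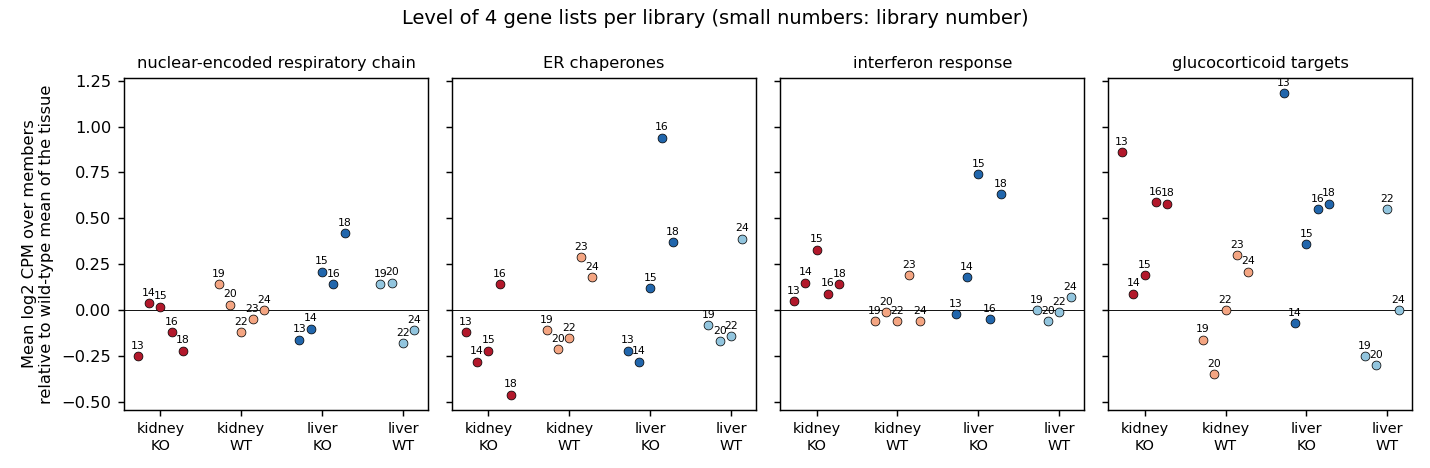
Level of 4 gene lists in each library (mean log2 CPM over the members, relative to the wild-type mean of the same tissue), in 4 groups, with the library's number above each point. Knockout livers 15 and 18 were high for the respiratory chain and the interferon response, knockout liver 16 for ER chaperones (0.94), and knockout 13 for glucocorticoid targets in both tissues (0.86 in kidney, 1.18 in liver).

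Interferon response genes, which limit viral growth, had a higher effect in liver in 21 of 28 (median 0.16), and 17 of 28 without number 18 (median 0.05). Their level was 0.74 and 0.63 in knockout livers 15 and 18 and -0.05 to 0.18 in the other 3, against -0.06 to 0.07 in wild-type livers. Ifi44 was at 7.76 and 6.86 CPM in livers 15 and 18, at 3.14 to 3.58 CPM in the other knockouts and at 1.74 to 3.38 CPM in wild types (difference 0.81, SE 0.32). Ifit3 stood at 27.3 and 27.5 CPM in the same 2 livers and at 12.6 to 15 CPM in all other livers. In kidney the knockouts with these numbers held 19.2 and 13.7 CPM of Ifit3, and 13.7 CPM was the lowest of all kidneys.

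Of 16 glucocorticoid targets 15 had a positive effect in kidney and 12 in liver, with medians of 0.38 and 0.44. The difference was split, 9 of 16 higher in liver (median 0.10), and its median turned to -0.10 without number 13. Tsc22d3, which mediates anti-inflammatory actions of the hormone, was at 37.7 to 55.7 CPM in knockout and 26.9 to 44.9 CPM in wild-type kidneys, and at 112 to 262 against 75 to 108 CPM in livers. The difference of 0.63 had an interval of -0.05 to 1.31. Circadian genes were even, 10 of 20 higher in liver, although Per1 and Per2 went apart (1.36, SE 0.78, and -0.80, SE 0.41).

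In glucose metabolism, 13 of 15 gluconeogenesis genes had a higher effect in liver (median 0.09), and 10 of 15 with library totals or without number 24. Tat was 1 of the 2 exceptions, and Got1, an aspartate aminotransferase, had a difference of 0.50 (SE 0.26). Glycolysis and fructose genes were split, 10 of 22, with Pfkfb3, an activator of glycolysis, at 8.51 to 50.6 CPM in knockout and 8.55 to 24.9 CPM in wild-type livers and level in kidney (difference 1.19, SE 0.52). Hypoxia targets had a higher effect in liver in 12 of 17 (median 0.18, and 0.08 without number 13 or 0.10 without number 18), and 4 of the 17 had an unadjusted p under 0.05, against 4.12% of all genes. Vldlr, Bnip3 (0.51, SE 0.19) and Egln3 (0.57, SE 0.22) were among these 4 with a higher and Ankrd37 (-1.12, SE 0.37) with a lower effect in liver, so these members differed in sign. Bnip3 and Egln3 were named after their values were seen.

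In lipid metabolism the direction was not shared. Of 18 lipogenesis genes 6 had a higher effect in liver (median -0.06). Fasn, fatty acid synthase, was at 388, 546, 344, 374 and 380 CPM in knockout and 438, 558, 556 and 834 CPM in wild-type livers, and at 91 to 163 against 77.6 to 120 CPM in kidneys. Its difference of -0.83 (interval -1.34 to -0.31, edgeR adjusted p = 0.84) was -0.53 without numbers 16 and 24, which were the highest knockout kidney and the highest wild-type liver. Cholesterol genes had a higher effect in liver in 15 of 24 (median 0.10, and -0.01 without number 24), with both tissues lower in most (21 of 24 in kidney, 18 of 24 in liver). PPAR alpha targets did so in 15 of 20 and in 8 of 20 without number 24, lipid droplet genes in 9 of 21 and lipoprotein genes in 10 of 23.

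NAD and ADP-ribose genes, of interest because macroH2A1.1 binds ADP-ribose, showed no common direction. Of 21 genes of NAD synthesis and salvage 11 had a higher effect in liver (median 0.01). Nampt, the rate-limiting enzyme of salvage, had a difference of 0.33 (SE 0.17). Of 27 genes of ADP-ribosylation and sirtuins 14 had a higher effect in liver (median 0.01), and Macrod2, which removes ADP-ribose from proteins, was at 4.34 to 5.88 CPM in knockout and 3.43 to 4.51 CPM in wild-type livers and at 85.3 to 116 CPM in all kidneys (difference 0.40, SE 0.15). The paralog H2afy2 had a difference of 0.46 (SE 0.26), and the replacement and linker histones as a list were at 7 of 13.

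Among stress and growth lists, 10 of 17 p53 targets had a higher effect in liver (median 0.05). Trp53inp1, an autophagy protein, was at 116, 99.2, 119, 92.7 and 86.3 CPM in knockout and 72.8, 62.7, 66.6 and 47.2 CPM in wild-type livers, without overlap. Kidneys overlapped, at 23.9 to 37.5 and 26.5 to 35.2 CPM, and the difference was 0.58 (interval 0.18 to 0.97, edgeR adjusted p = 0.945). Integrated stress response genes had a higher effect in liver in 13 of 20 (median 0.10), heat shock genes in 12 of 15 (median 0.10, and 6 of 15 without number 18) and NRF2 targets in 8 of 16, led by Nqo1 (0.48, SE 0.20). Immediate early genes did so in 13 of 17, and the kidney labelled wild-type 24 was high in these (list level 1.56, against -0.66 to -0.17 in the other wild-type kidneys). Without number 24 they were at 9 of 17.

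In detoxification, cytochrome P450 genes were split, 9 of 20 (median -0.02, but 0.25 without number 13 and -0.37 without number 18), and conjugation genes were at 14 of 25 (median 0.06), with 2 of them at an unadjusted p under 0.05 in each direction, against 4.12% of all genes in both directions. Sult1d1, a sulfotransferase, was at 129 to 189 CPM in knockout and 109 to 122 CPM in wild-type livers without overlap, and kidneys overlapped (difference 0.58, SE 0.16, edgeR adjusted p = 0.84). Urea cycle genes were at 7 of 15, matrix genes at 14 of 28 and cell division genes at 11 of 24, with Ccnb2 at 1.10 (SE 0.37).

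**Figure D5:**
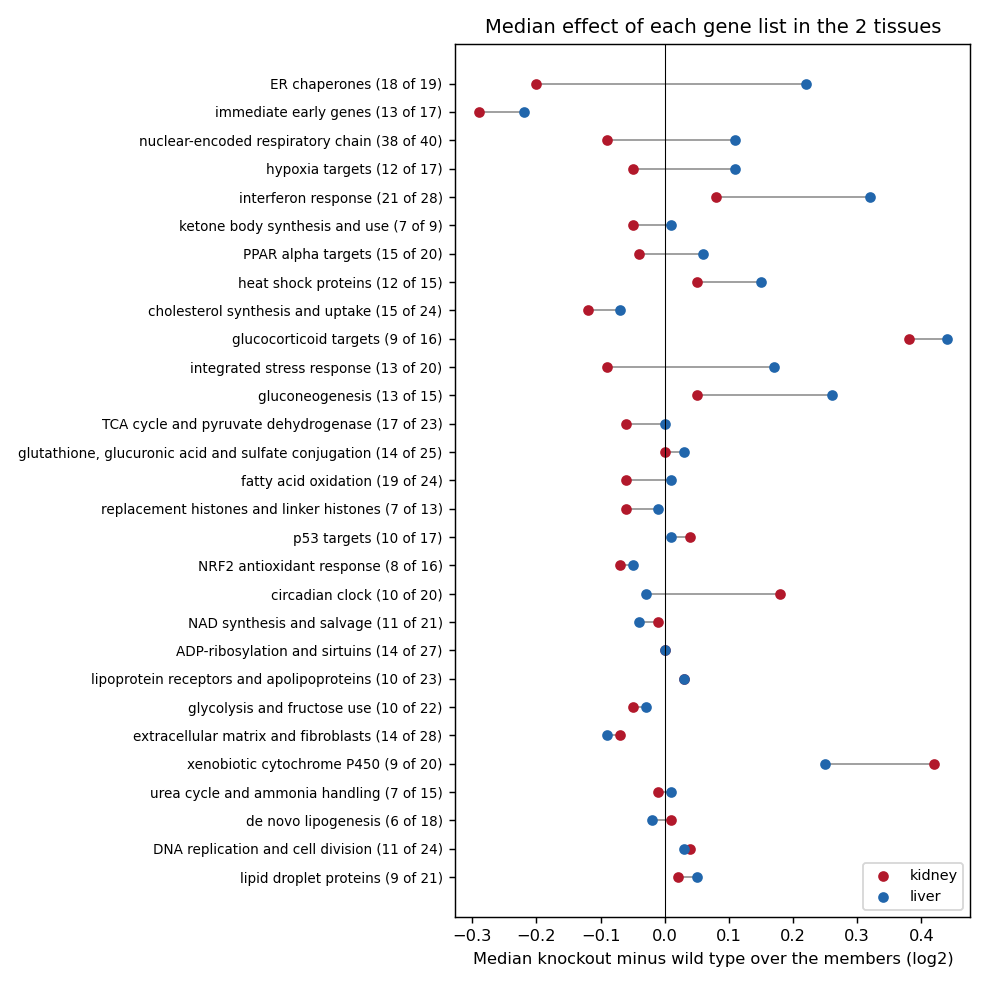
Median knockout effect (log2) over the measured members of each of 29 gene lists in kidney (red) and in liver (blue), ordered by the median of the tissue difference; numbers in brackets count members with a higher effect in liver. The respiratory chain and ER chaperones lay below 0 in kidney and above 0 in liver. So did other lists, among them the integrated stress response, hypoxia targets and PPAR alpha targets. Glucocorticoid targets and interferon response genes were among the lists above 0 in both.

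Markers of other cell types were also compared. Of 10 skeletal muscle markers 7 were tested, and only 3 passed the count filter in both tissues. They had a higher effect in liver in 7 of 7, and 6 of these had an unadjusted p under 0.05. That share was 4.12% of all genes, 7.33% of genes of kidney only and 7.26% of genes of liver only. The markers were read in the same libraries and are not independent observations. Their summed level was 21.9, 1.75, 9.69, 6.62 and 13.3 CPM in knockout livers and 2.05 to 3.84 CPM in wild types, and 18.8 to 28.9 CPM in all kidneys. The list holds Pvalb, which is also on the distal convoluted tubule list, so the kidney sum does not measure muscle RNA alone. Ckm, muscle creatine kinase, reached 2.4, 0.0448, 0.969, 0.544 and 1.27 CPM in knockout livers and 0.0828 to 0.209 CPM in wild types. In kidneys Ckm was at most 0.278 CPM. Kap, a proximal tubule gene, had 10 and 20 counts in the livers labelled wild-type 22 and 24 and 0 in all others, at least 12.9-fold lower in knockouts against a floor of 3 counts over the group, and it was among the genes DESeq2 called. The bound was 5.47-fold without liver 24 and 11.8-fold without liver 22, settings chosen after seeing the data. Of the 11 proximal tubule markers, Kap among them, 5 had a higher and 6 a lower effect in liver, and their summed level was 1239 to 1714 CPM in knockout and 1132 to 1498 CPM in wild-type livers. Only 3 of the 11 passed the count filter in both tissues and 2 were at 0 in all livers. The liver sum thus came from part of the list and does not measure tubule RNA. Thick ascending limb markers summed to at most 0.374 CPM in any liver. Markers of Kupffer cells had a lower effect in liver in 7 of 10, and their summed level, at 292 to 416 CPM in knockout and 287 to 477 CPM in wild-type livers, overlapped. The part of these cells in the tissue differences above was not tested.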

How the data were processed

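Poly(A) RNA from whole kidney and liver was sequenced in 19 libraries. Raw counts for 26506 genes were deposited, made by the authors with Trim Galore, STAR and featureCounts on GRCm38, per the submitters' processing notes; versions and the strand setting were not stated there. Overlapping and antisense genes may thus share reads. Its lowest row sum is 10. GENCODE M21 matched 26417 of the genes.

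Counts were fitted with edgeR 4.0.16 (R 4.3.3, limma 3.58.1): TMM scaling of all libraries, a filter for expression at a minimum count of 10 (18549 genes kept), robust quasi-likelihood tests in 1 fit of 4 groups, and Benjamini-Hochberg adjustment over all genes. Intervals are 95%, from the standard error and the fit's degrees of freedom. TMM factors were 1.31 to 1.39 in kidney and 0.666 to 0.759 in liver, so levels are compared only within a gene. Small differences in level between the tissues depend on this scaling. The procedure was run on simulated counts, with differences placed only in genes well expressed in both tissues and with libraries drawn independently. That run does not cover genes scarce in a tissue or numbers shared between tissues. Exact binomial intervals and floors cover counting error only. The labels do not state in words that each library is another animal, and p-values then reflect only the variation among these libraries, possibly technical.

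The counts were also run through DESeq2 1.42.0 and limma voom (weighting samples), under other scalings and filters, with each tissue alone, with a replicate block, and without each number in both tissues at once. Named genes were H2afy and Unc5a, the 10 with the smallest p in each direction, opposite genes (up to 6 per order), the 4 of equal sign in each direction and up to 2 per list. Others named are the markers Alb, Umod, Kap, Ckm and Pvalb, the promoter genes and those said to be chosen after their values were seen. Members and all 29 pathway and 18 cell type lists (699 of 710 genes in the table) were chosen with earlier results of these data known. Promoter sequences are from RefSeq.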

Additional observations from a re-analysis of the deposited data

Results flagged for a closer look

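In 23 of 308 groups of 4 or 5 libraries (7.47%) 1 library stood apart from the rest by Dixon's criterion, which chance alone meets in about 1 of 20. For single genes, Cxcl14 was at 27.4 CPM in the liver labelled wild-type 24 (others 4.55 to 6.1) and at 10.3 CPM in knockout kidney 13 (others 16.7 to 18). Habp4 was at 105 CPM in knockout liver 16 (others 55.9 to 66.3), and Zfp429 was at 0.67 CPM in knockout kidney 16 (others at most 0.0535). In wild-type kidneys, Vldlr was at 49.1 CPM in number 23 (others 61.6 to 65.4), Plcd3 at 14.1 CPM in number 23 (others 11.5 to 12) and Gm10451 at 7.36 CPM in number 24 (others 4.5 to 5.27). In wild-type livers, Cspg4 was at 0.141 CPM in number 20 (3 counts) and D730005E14Rik at 0.0418 CPM in number 22 (1 count), with the others at 0. Where all others are at 0, any value above 0 meets the criterion. These flags, counted among the 23, therefore carry no information.

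For list levels (mean log2 relative to the wild types of the tissue), immediate early genes were at 1.56 in wild-type kidney 24 (others -0.66 to -0.17) and heat shock genes at 0.50 in knockout kidney 16 (others -0.04 to 0.11). ER chaperones were at 0.39 in wild-type liver 24 (others -0.17 to -0.08). Wild-type kidney 23 was at 0.19 for interferon genes (others -0.06 to -0.01) and at 0.10 for p53 targets (others -0.04 to -0.01). Knockout kidney 13 was at 0.30 for lipoprotein genes (others -0.07 to 0.01) and at 0.23 for conjugation genes (others -0.01 to 0.05). Wild-type kidney 24 was at 0.07 for lipoprotein genes (others -0.04 to -0.01), and wild-type liver 19 was at -0.07 for lipogenesis (others 0.02 to 0.03).

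For summed markers, adrenal cortex genes were at 108 CPM in knockout kidney 16 (others 3.4 to 5.05) and 8.13 CPM in knockout liver 18 (others 5.87 to 6.44). Markers of T and B cells were at 98.3 CPM in knockout liver 18 (others 46.5 to 60), of the proximal tubule at 1714 CPM in knockout liver 13 (others 1239 to 1373) and of the distal convoluted tubule at 1738 CPM in knockout kidney 13 (others 1222 to 1370).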

How the results depend on the processing

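The count of genes past the edgeR threshold for the tissue difference was 0 in all settings except DESeq2 (11), leaving out numbers 16 and 24 together (4) and leaving out 1 number (0 to 3). Kidney calls, 3 in all libraries, were 19 with DESeq2, 9 with limma voom, 7 with the replicate block as a random effect, 5 with a filter of 1 CPM, 5 with library totals, 1 in each tissue on its own, 12 without numbers 16 and 24, and 0 to 11 with 1 number left out. Liver calls, 21, were 97 with DESeq2, 5 with the random block, 13 with no filter, 0 in each tissue on its own and 2 to 52 with 1 number left out. Opposite genes, 3, were 5 with DESeq2, 5 with limma voom and 1 to 7 with 1 number left out. The cause of these shifts was not tested. The replicate numbers are only shared: in deviations from group means, kidney and liver of the same number correlated at 0.084 to 0.416, above 0.1 in 7 of 9 pairs, and 4 of 9 kidneys correlated best with their own number. With the replicate block in the fit, 0 tissue differences passed and 681 had an unadjusted p under 0.05; as a random effect (consensus correlation 0.183), 0 passed and 848 did. With the random effect, 12 of 15 liver calls of named genes were lost, that for the liver effect of Vldlr among them (adjusted p = 0.206, range over its alternatives 1.22e-05 to 0.536).

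Over 81 named genes and 1769 alternatives, 1735 kept direction and side of the threshold, 18 in 12 genes passed it newly, and 16 in 6 genes turned sign. As no tissue difference passed in the main fit, no call could be lost. The alternatives also share most of their counts, so the number kept does not measure how stable a difference is. With 1 number left out, the difference was -0.08 to 0.03 for H2afy, -0.08 to 0.07 for Zfp369, -0.07 to 0.85 for Gm42031, -0.55 to 1.32 for Zfp429 and -0.15 to 2.39 for Egr1. Zfp369 was -0.02 with library totals, -0.02 with limma voom and -0.09 without numbers 16 and 24. Zfp429 was 1.02 with the random block, 0.32 with limma voom and 1.5 without numbers 16 and 24. Egr1 was -0.38 and -0.22 under the last 2 of these, and Nr4a1 was -0.23 with limma voom. Precision was lowest for genes active in 1 tissue (median standard errors 0.93 and 0.92); the part of depth in this was not tested.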
